A study of Bos taurus with 20 samples.

Results

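The extracellular matrix of skeletal muscle was followed here through 43 genes for collagens, matrix proteins and matrix remodelling enzymes. The genes were listed by name, with earlier results of these data known. For each, 1 probe was taken, the one with the highest mean signal among those whose gene name or description matched. All 43 had a probe among the 21475 probes of the array, on 47 probes in total, because COL1A2, DCN, FBN1 and MMP2 had 2 each. COL4A1 and COL14A1 were well above background on 3 and 1 of the 20 arrays, fewer than the 5 required, and were not tested, so 41 genes entered the comparisons. The probe for TIMP3 was matched through its description, while its gene name and accession in the files are those of CHRNA3, so values given for TIMP3 are uncertain in identity. THBS1 and VCAN were found under the older symbols THBS and CSPG2.

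The samples were neck muscle of 10 cows, taken at the slaughterhouse and kept under vacuum at 4 °C. The control group held 5 cows that were given no growth promoter (K3, K6, K8, K9 and K10). The treated group held 5 cows (DE27, DE29, DE30, DE31 and DE32) that received 2 agents. Dexamethasone, written dexamethazone in the labels, was given orally over 31 days, with a daily dose of 0.4 mg to each animal. Estradiol was injected into muscle once a week, 6 times, with 5 mg for each animal. Each animal gave 1 sample at day 0 and 1 at day 14 of storage, so there were 4 groups of 5 one-colour arrays, and both days came from the same animals. The groups follow the titles and characteristics of the samples, which give the same day for all 20. The free-text description gives another day for 10 of them, the 5 control samples of day 14 and the 5 treated samples of day 0, and was not used. The day 0 title of DE31 reads D31, and it was taken as the same animal. Dexamethasone is a synthetic glucocorticoid and estradiol an estrogen, a combination that has been used illicitly to promote growth. Breed and age are not given in the sources used here.

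Muscle fibres are wrapped in layers of connective tissue that carry force and hold the vessels and nerves. Fibroblasts lay down most of the fibrillar collagens, which small leucine-rich proteoglycans such as decorin and lumican help to arrange into fibrils, while a thin basement membrane of collagen IV, laminins and nidogen covers each fibre and each capillary. The matrix is renewed slowly by proteases and their inhibitors and stiffened by cross-linking enzymes, and glucocorticoids are known to lower collagen synthesis in several connective tissues. In meat the amount and cross-linking of collagen contribute to background toughness, and the transcript levels of day 14 are those of the RNA still present in the stored meat.

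All levels below are log2 processed signals, centred on the 75th percentile of each array, so a difference of 1 is a 2-fold difference. Levels of different genes are not compared, because probes differ in brightness. The 75th percentile of the signal before centring was between 654 and 945 on the day 0 arrays and between 274 and 533 on the day 14 arrays, and K6 at day 14 had the lowest of all. The arrays lay on 6 slides scanned in 3 sessions, and storage day was tied to slide. Only slide 6 held control arrays of both days and only slide 5 held treated arrays of both days. Each scan session held arrays of both days. The labelled tissue was borne out by its markers, since 11 of 12 skeletal muscle fibre genes were tested and all 11, ACTA1, CKM, MYH7 and MB among them, were well above background on all 20 arrays. In whole tissue, fewer cells of a type and less RNA per cell cannot be told apart.

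**Figure D1:**
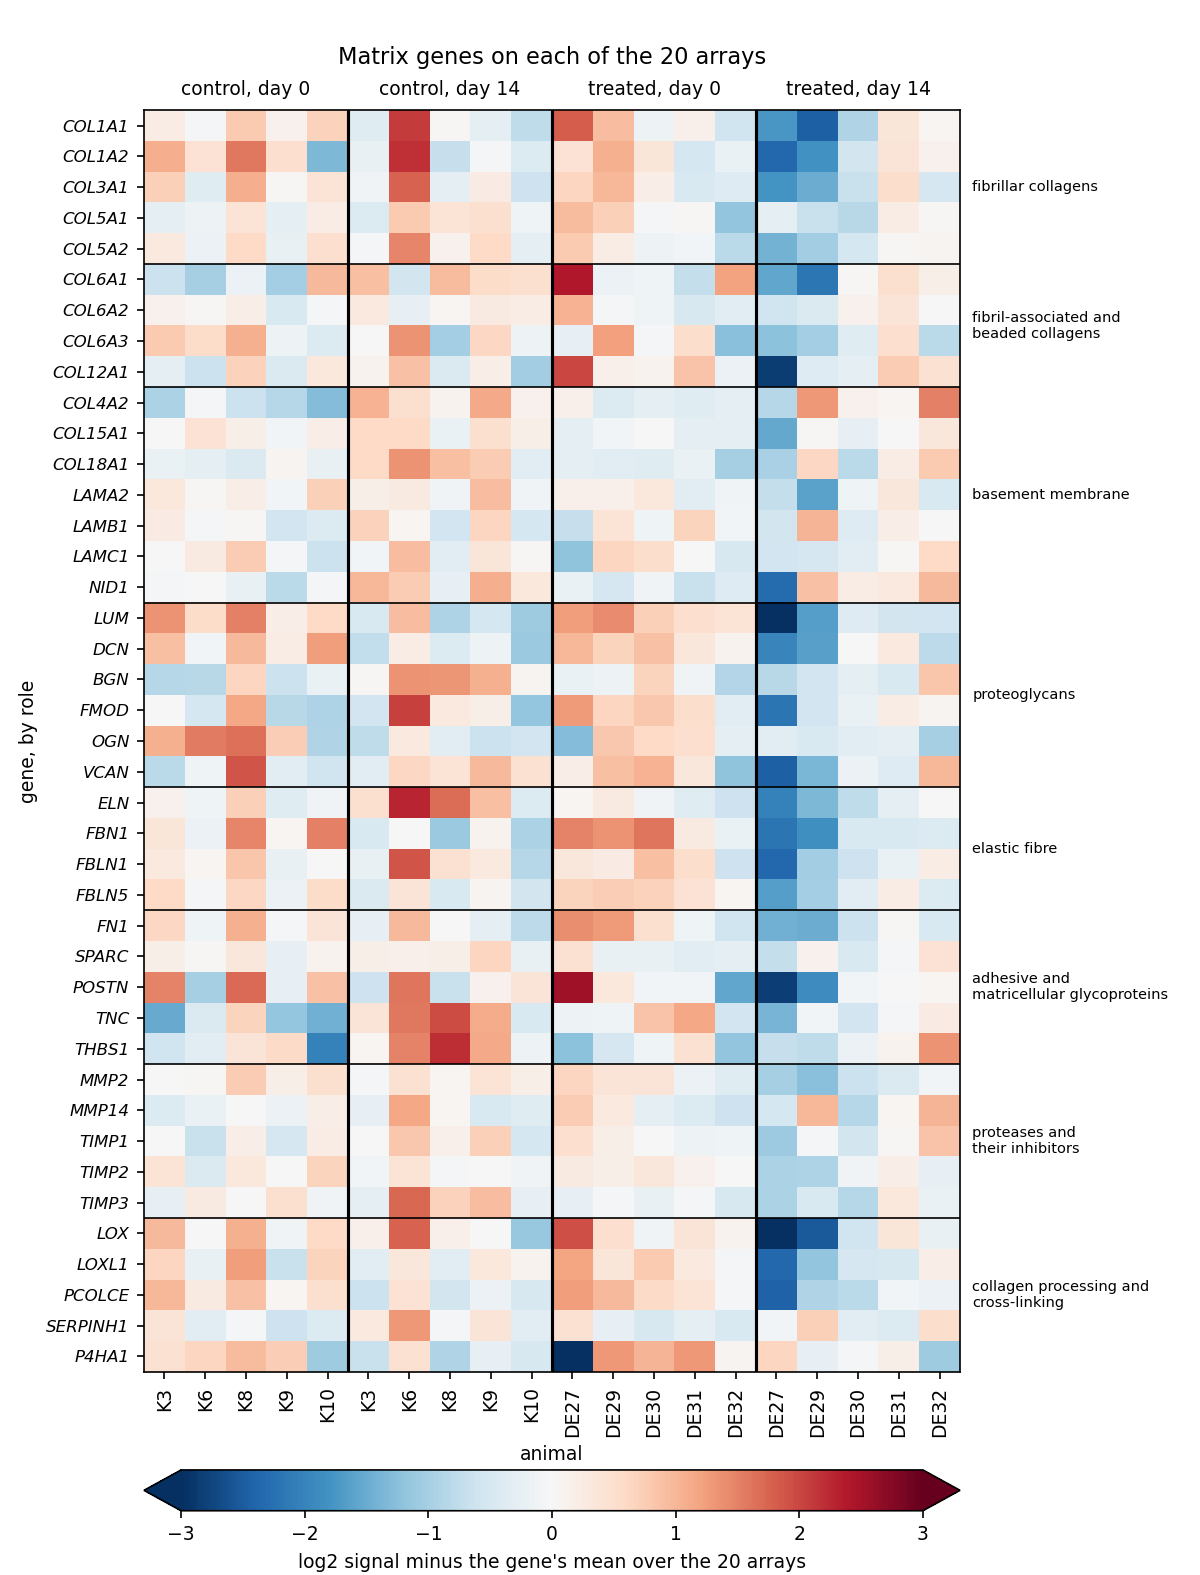
Heat map of the 41 tested matrix genes (rows, ordered by role) on the 20 arrays (columns, ordered by group and animal), coloured by the log2 signal minus the gene's mean over the 20 arrays. At day 14 the column of control animal K6 is mostly red and the columns of treated animals DE27 and DE29 are mostly blue.

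The matrix genes varied more between animals than most genes did. Within groups, the median standard deviation over the 41 genes was 0.47 for controls at day 0, 0.61 for controls at day 14, 0.57 for treated animals at day 0 and 0.82 for treated animals at day 14. The median over all 15431 probes tested was 0.31, 0.40, 0.33 and 0.43 in the same order. In the treated group at day 14, 39 of 41 matrix genes had a standard deviation above the median of all probes.

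Much of that spread was shared by the genes, as the heat map of deviations shows. The level of the whole list on an array was summarised as the median, over the 41 genes, of the signal minus the gene's mean over all arrays. At day 0 it was 0.23, -0.09, 0.69, -0.17 and 0.20 in K3, K6, K8, K9 and K10, and 0.47, 0.32, 0.10, 0.01 and -0.33 in DE27, DE29, DE30, DE31 and DE32. At day 14 it was -0.08, 0.88, -0.01, 0.37 and -0.31 in the controls and -1.41, -0.91, -0.38, 0.06 and 0.06 in the treated animals. The groups overlapped at both days, and the extremes were K6, which was the highest of the 10 day 14 arrays for 26 of 41 genes, and DE27, which was the lowest for 29 of 41. Both arrays, with that of DE29, were on slide 2.

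The first question was whether the growth promoters altered matrix transcripts in fresh muscle. At day 0 none of the 41 genes passed the threshold of an adjusted p of 0.05 in the limma fit over all probes, where 2.45% of all probes did (1.32% higher and 1.13% lower in treated animals). The signals of the 2 groups overlapped for all 41, where 5.82% of all probes had groups that did not overlap. The median difference, treated minus control, was 0.01, with 22 genes above 0 and 19 below, against -0.01 over all probes. At an unadjusted p under 0.05 there were 2 genes, COL15A1 and COL4A2, both genes of basement membrane collagens, beside 2662 of all 15429 probes. COL15A1 was 11.02 ± 0.20 in controls and 10.69 ± 0.13 in treated animals (SD, n = 5), a difference of -0.33 (SE 0.14) with a limma adjusted p of 0.245. COL4A2 differed the other way, by 0.52 (SE 0.23), with a limma adjusted p of 0.271.

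In the other roles the gene with the smallest p at day 0 was as follows. TNC, which encodes tenascin C, a glycoprotein of remodelling and tendon matrix, differed by 1.0 (SE 0.46, limma adjusted p = 0.296). FMOD, the proteoglycan fibromodulin, differed by 0.81 (SE 0.41, limma adjusted p = 0.343). COL12A1, a collagen on the surface of fibrils, differed by 0.67 (SE 0.41, limma adjusted p = 0.452). The probe named for TIMP3 differed by -0.30 (SE 0.16, limma adjusted p = 0.388). The smallest p among fibrillar collagens belonged to COL5A2, among elastic fibre genes to FBLN5 and among processing enzymes to LOXL1, with differences of -0.21, 0.20 and 0.18 and limma adjusted p of 0.767, 0.685 and 0.849. A gene that missed the threshold is not shown to be equal in both groups: in data simulated for this comparison limma recovered 61% of 2-fold changes.

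After 14 days of storage the treated animals had lower values of most matrix genes, yet no single gene passed the threshold. The median difference, treated minus control, was -0.69 against 0.05 over all probes, and 38 of 41 genes were below 0. In data simulated for this comparison limma recovered 32% of 2-fold changes, again in probes drawn from all tested probes and not from the matrix genes alone. None of the 41 had a limma adjusted p under 0.05, where 0.0713% of all probes did (0.0259% higher and 0.0454% lower). At an unadjusted p under 0.05 there were 7 of the 41, beside 1613 of all 15423 probes. MMP2, the gelatinase that degrades denatured and basement membrane collagen, had the smallest p. It read 11.08, 11.57, 11.16, 11.52 and 11.29 in K3, K6, K8, K9 and K10, and 10.11, 9.86, 10.46, 10.67 and 11.03 in DE27, DE29, DE30, DE31 and DE32. It was the only one of the 41 genes whose 2 groups did not overlap at day 14, where 2.27% of all probes were separated in that way. The difference was -0.90 (SE 0.23), with a limma adjusted p of 0.255. A second MMP2 probe differed by -0.64 (SE 0.29, limma adjusted p = 0.475).

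ELN, which encodes elastin, the core of elastic fibres, had the largest difference among the matrix genes at day 14. Its signal was 8.74, 10.55, 9.95, 9.17 and 7.87 in the controls and 6.24, 6.91, 7.51, 7.99 and 8.27 in the treated animals. Only control animal K10 lay within the range of the treated group. The difference was -1.87 (SE 0.51, limma adjusted p = 0.264), and it passed when all 20 arrays shared 1 fit (limma adjusted p = 0.0459) and with the animal as a replicate block in that fit (limma adjusted p = 0.0466).

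The other genes named by role at day 14 missed the threshold. BGN, the proteoglycan biglycan, differed by -1.03 (SE 0.37, limma adjusted p = 0.381). TNC differed by -1.29 (SE 0.46, limma adjusted p = 0.377). COL5A2, a minor chain of collagen V that sits inside type I fibrils, differed by -0.95 (SE 0.38, limma adjusted p = 0.434). COL6A1 of the beaded collagen VI around cells, LAMA2 of the muscle laminin, and LOXL1 of elastin cross-linking differed by -1.08, -0.74 and -0.89, with limma adjusted p of 0.499, 0.482 and 0.475.

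The shift at day 14 differed between slides and sessions. Within scan session 1, which compares DE27 and DE29 with K6, the median difference of the 41 genes was -2.04. Within scan session 2, which compares DE30, DE31 and DE32 with K9 and K10, it was -0.07, with 27 genes below 0 and 14 above. Session 2 held slide 4, with a median of -0.57 and 33 genes below 0, and slide 5, with 1 array of each group, a median of 0.50 and 32 genes above 0. With slide as a block the median was -0.80, with 40 of 41 genes below 0, and with session as a block it was -0.76, with all 41 below 0. Without K6 the median was -0.50 with 36 genes below 0, and without DE27 it was -0.45 with 35 below. Markers of other cell types moved alongside: all 9 fibroblast genes tested were below 0 in the treated animals (median -0.41, none past the threshold) and 10 of 11 skeletal muscle fibre genes were above 0 (median 0.49, none past the threshold). Below 0 were also 7 of 8 smooth muscle and pericyte genes (median -0.57), all 4 tendon genes (median -0.74, FMOD of the matrix list among them), 5 of 6 nerve and Schwann cell genes (median -0.50) and 5 of 6 adipocyte genes (median -0.42), none past the threshold. Macrophage genes had 4 of 7 below 0 and endothelial genes 4 of 9. The log2 of the summed signal of the muscle fibre genes was 20.77 to 21.28 in treated animals at day 14, above the 20.41 to 20.69 of the controls, and that of the fibroblast genes was 12.11 to 13.18 against 12.57 to 14.00. Their part in the difference of the matrix genes was not tested.

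**Figure D2:**
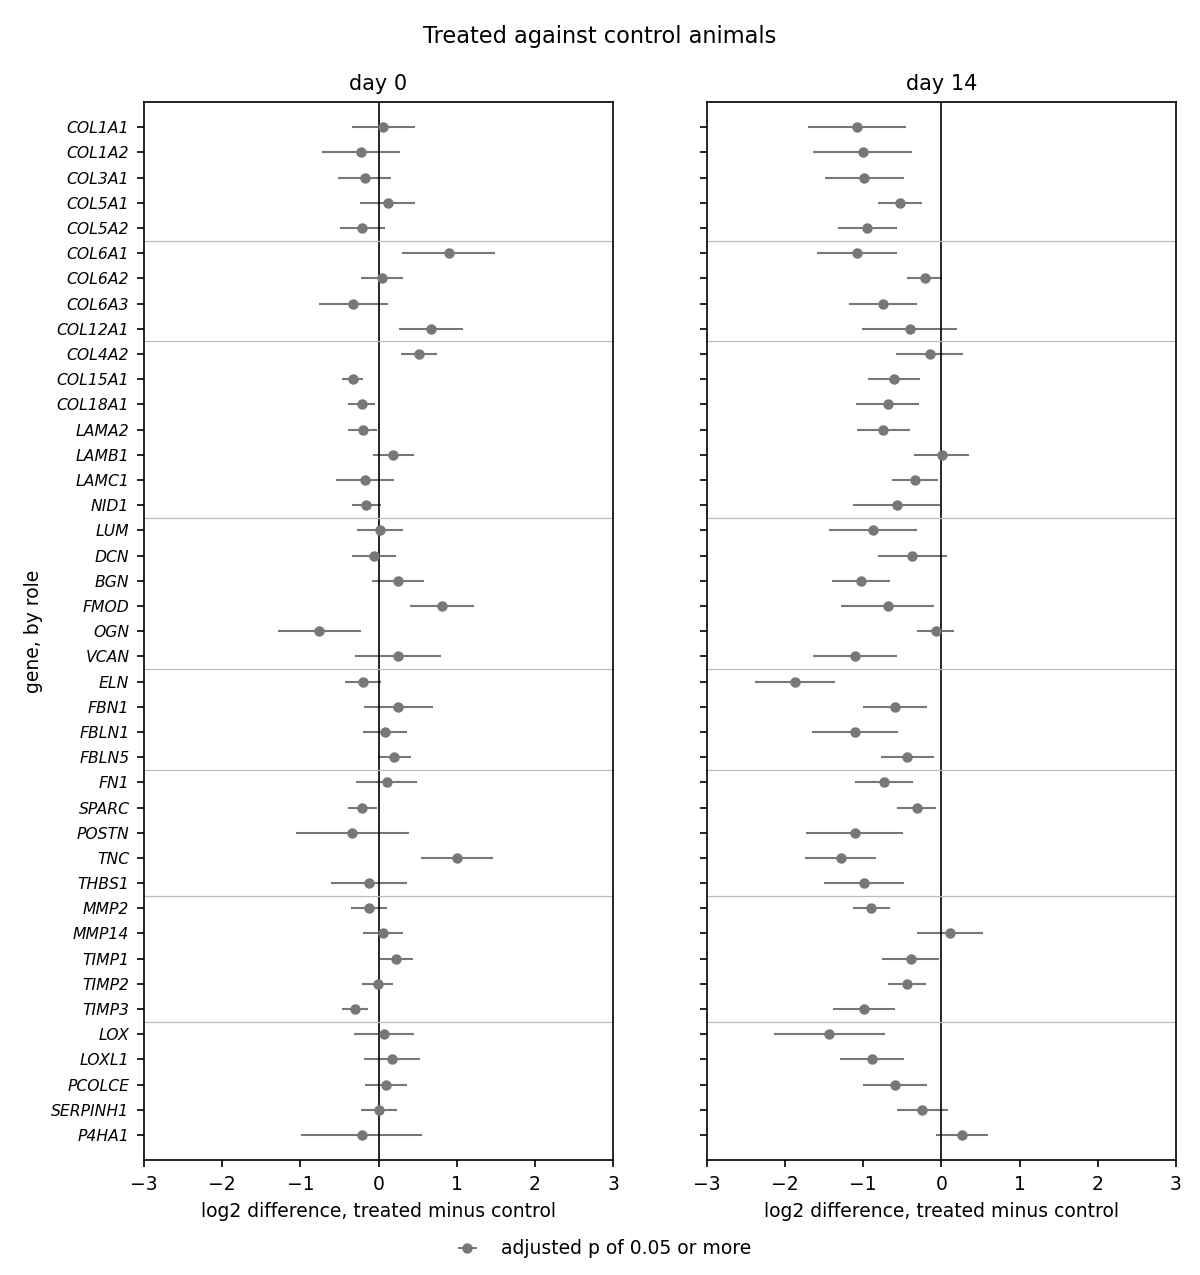
Log2 difference, treated minus control, of each of the 41 matrix genes at day 0 (left) and day 14 (right), with bars of 1 standard error from limma and 5 arrays in each group. At day 0 the points lie on both sides of 0, at day 14 38 of 41 lie below it, and none is red, the colour for an adjusted p below 0.05.

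The second question was what storage did to matrix transcripts. In control muscle 10 of 41 matrix genes passed the threshold between day 0 and day 14, 5 higher and 5 lower, where 39.2% of all probes passed, 21.8% higher and 17.3% lower. The share among the matrix genes was below that of the array as a whole. The genes that rose were TNC, COL4A2, BGN, COL18A1 and NID1, and those that fell were LUM, OGN, FBN1, DCN and PCOLCE. The median change of the 41 genes was 0.11 against 0.09 over all probes.

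In treated muscle 8 of 41 genes passed, all of them lower at day 14, where 29.7% of all probes passed, 18.2% higher and 11.6% lower. They were LUM, FBN1, PCOLCE, DCN, LOXL1, FN1, FBLN5 and MMP2. The median change was -0.60 against 0.11 over all probes, with 34 of 41 genes below 0. LUM, DCN, FBN1 and PCOLCE fell in both sets of animals, which makes 40% of the 10 genes called in controls and 50% of the 8 called in treated animals. No share of all probes called in both sets stands beside these, so the overlap is not read as particular to the matrix genes. Of the 41 genes, 18 were below 0 in both sets, 7 above 0 in both, and 16 above 0 in controls and below 0 in treated animals.

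The scaling of the arrays moves these splits. Centring on the array median instead of the 75th percentile shifted the median of all probes from 0.09 to -0.20 in controls and from 0.11 to -0.23 in treated animals, and normexp background correction shifted it to 0.46 and 0.48. With median centring 2 matrix genes rose and 7 fell in controls, and 16 fell in treated animals. Over all probes, 1820 rose and 4361 fell in controls of 15425, and 1515 rose and 3620 fell in treated animals of 15426. With normexp the controls had 5 of each and the treated animals 5 higher and 12 lower. The control calls were not the same genes, since COL18A1, FBN1 and OGN were lost and FBLN5, MMP14 and TIMP2 gained. Of the same probes, 5219 then rose and 1548 fell in controls, and 7117 rose and 1678 fell in treated animals. Over all probes, 55.8% of the calls in controls were higher, against 29.4% with median centring and 77.1% with normexp.

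Slide was the other limit. With slide as a block, the storage change of controls is estimated on slide 6 alone and that of treated animals on slide 5 alone. No matrix gene passed in either, where 183 of all 15425 probes passed in controls and 0 of 15426 in treated animals. The genes called without the block then had limma adjusted p of 0.0938 to 0.644 in controls and of 0.327 to 0.93 in treated animals. By scan session, the median difference between days of the 41 genes in controls was 0.97, -0.16 and -0.05 in sessions 1, 2 and 3. The control arrays of the 2 days in a session came partly or wholly from different animals. Session 1 set K6 at day 14 against K3 and K6 at day 0, and session 2 K9 and K10 against K8 and K9. Session 3, with the control arrays of slide 6, set K3 and K8 at day 14 against K10 at day 0. In treated animals the median was -1.45 in session 1, with DE27 and DE29 against DE29. It was 0.02 in session 2, with DE30, DE31 and DE32 at both days.

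**Figure D3:**
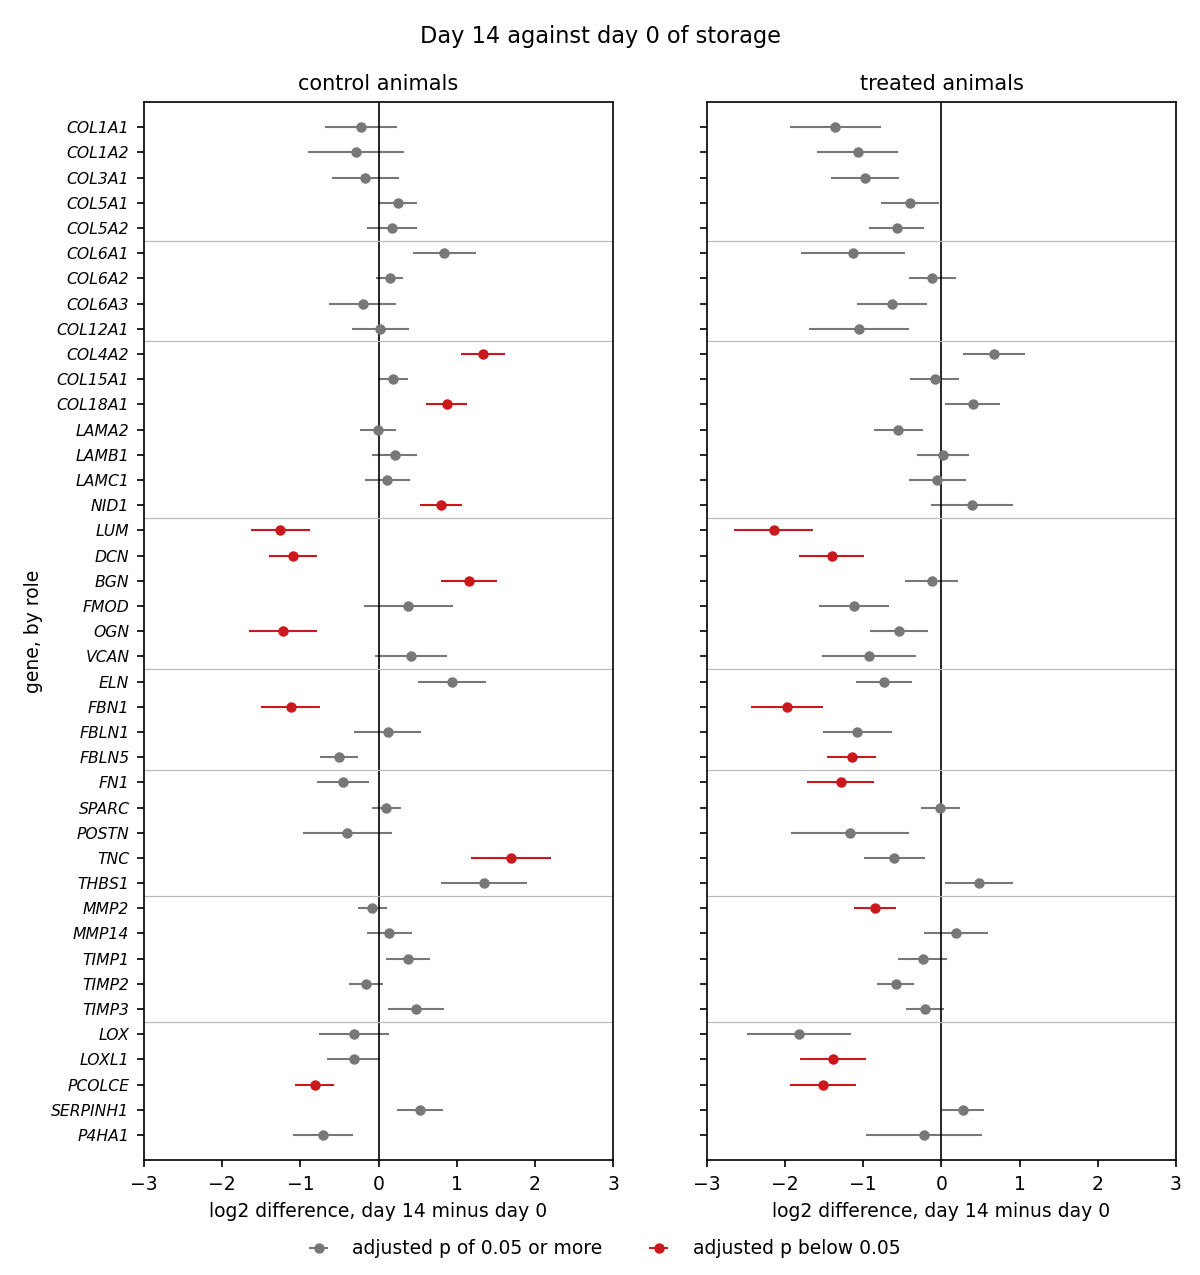
Log2 difference, day 14 minus day 0, of each of the 41 matrix genes in control animals (left) and treated animals (right), with bars of 1 standard error from limma, 5 arrays for each day. Red points have an adjusted p below 0.05, 10 in controls on both sides of 0 and 8 in treated animals, all below 0.

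Among the proteoglycans, lumican and decorin, which bind fibrillar collagen and set fibril width and spacing, fell in both sets of animals. LUM was 10.99, 10.20, 11.16, 9.86 and 10.25 in K3, K6, K8, K9 and K10 at day 0 and 9.18, 10.56, 8.72, 9.13 and 8.58 at day 14. In 4 of the 5 controls, all but K6, the later value was the lower one. The change was -1.26 (SE 0.38), a 2.39-fold fall, with a limma adjusted p of 0.0234. In the treated animals DE27, DE29, DE30, DE31 and DE32 it went from 10.90, 11.06, 10.37, 10.14 and 10.05 to 6.36, 7.99, 9.26, 9.10 and 9.08. Every treated animal had less at day 14, and the groups did not overlap, as was so for 20.2% of all probes. The change was -2.15 (SE 0.51), a 4.43-fold fall, with a limma adjusted p of 0.00952. By scan session, with the animals given above, the difference between days was -0.03, -1.66 and -1.30 in controls in sessions 1, 2 and 3. In treated animals it was -3.88 and -1.04 in sessions 1 and 2.

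DCN was 14.37, 13.38, 14.44, 13.69 and 14.73 in controls at day 0 and 12.73, 13.69, 13.07, 13.31 and 12.36 at day 14. The groups overlapped, again through K6. The change was -1.09 (SE 0.31, limma adjusted p = 0.0173), a 2.13-fold fall. In treated animals DCN went from 14.47, 14.13, 14.34, 13.80 and 13.58 to 11.50, 11.85, 13.48, 13.77 and 12.69. All 5 treated animals were lower at day 14, though the change in DE31 was -0.03. The change was -1.41 (SE 0.42, limma adjusted p = 0.0262). The second, dimmer DCN probe changed by -0.46 in controls and -0.76 in treated animals, with limma adjusted p of 0.163 and 0.0689. With the animal as a replicate block the adjusted p of the first probe was 0.0557 in controls and 0.0466 in treated animals.

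BGN is the closest relative of decorin and behaved differently in the controls. It was 10.55, 10.58, 12.05, 10.77 and 11.20 at day 0 and 11.45, 12.76, 12.75, 12.49 and 11.49 at day 14. The later value was higher in all 5 controls, with overlapping groups because of K8 at day 0. The rise was 1.16 (SE 0.36, limma adjusted p = 0.0266), or 2.23-fold. In treated animals it went from 11.21, 11.26, 12.09, 11.30 and 10.54 to 10.59, 10.85, 11.13, 10.95 and 12.25, lower in 4 animals and higher in DE32. That change of -0.13 did not pass. With array median centring or with scan session as a block the rise in controls did not pass.

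OGN, the small proteoglycan osteoglycin, was close to background, and the direction of its change turned with the background correction. It was well above background on 4 of 5 control arrays at day 0 and on none of the 10 arrays at day 14. The control change was -1.22 (SE 0.44, limma adjusted p = 0.0438), from a measured mean of 3.69 to 2.47. Set against the lowest signal well above background on each day 14 array, the day 0 mean of OGN in controls was 1.33-fold higher. That mean includes a control array not well above background, so 1.33-fold is not a firm bound. With normexp the sign of the control change turned, to 0.86, and the value did not pass. FMOD and VCAN, for fibromodulin and the large proteoglycan versican, changed by 0.38 and 0.42 in controls and by -1.12 and -0.93 in treated animals, and neither passed.

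The elastic fibre genes encode elastin and the microfibril and bridging proteins on which it is laid down. FBN1, for fibrillin 1 of the microfibrils, was 6.78, 6.25, 7.89, 6.48 and 7.93 in controls at day 0 and 5.97, 6.44, 5.31, 6.52 and 5.47 at day 14. The later value was lower in K3, K8 and K10, while K6 and K9 changed by 0.19 and 0.03. The change was -1.12 (SE 0.38, limma adjusted p = 0.0358). In treated animals it went from 7.91, 7.77, 8.02, 6.68 and 6.23 to 4.23, 4.58, 5.97, 5.96 and 6.00, lower in all 5 and without overlap. DE27 and DE29 were not well above background at day 14. The change was -1.97 (SE 0.46, limma adjusted p = 0.00942), a 3.92-fold fall. A second FBN1 probe changed by -0.40 and -0.69, with limma adjusted p of 0.507 and 0.0955. With the animal as a replicate block the adjusted p of the first probe was 0.0904 in controls and 0.0309 in treated animals, and with normexp neither change passed.

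FBLN5, for fibulin 5, which tethers elastin to cells, fell in the treated animals. It went from 10.30, 10.37, 10.33, 10.07 and 9.70 to 7.99, 8.62, 9.33, 9.86 and 9.23, lower in all 5 with some overlap. The change was -1.15 (SE 0.32, limma adjusted p = 0.0193). In controls it changed by -0.51 and did not pass. ELN and FBLN1, for fibulin 1, changed by 0.94 and 0.12 in controls and by -0.73 and -1.07 in treated animals, and none of these passed.

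The basement membrane genes were the role with most rises in controls, 3 of 7 tested, where 21.8% of all probes rose. COL4A2, a chain of the network-forming collagen IV, was 7.51, 8.44, 7.82, 7.61 and 7.16 at day 0 and 9.51, 8.95, 8.58, 9.61 and 8.60 at day 14. Of the 41 genes it alone was without overlap between days in controls, where 25.0% of all probes had none. The rise was 1.34 (SE 0.28), or 2.53-fold, with a limma adjusted p of 0.00466, and it passed without each control animal in turn. COL18A1, whose product carries the endostatin fragment at its end, was 11.93, 11.87, 11.70, 12.21 and 11.91 at day 0 and 12.74, 13.47, 13.04, 12.90 and 11.83 at day 14. The later value was higher in all controls but K10. The change was 0.87 (SE 0.27, limma adjusted p = 0.024), and it did not pass with normexp or with array median centring. NID1, for nidogen 1, the link between laminin and collagen IV, was 5.60, 5.66, 5.43, 4.85 and 5.61 at day 0 and 6.65, 6.40, 5.41, 6.74 and 5.96 at day 14. The later value was higher in all controls but K8. The change was 0.80 (SE 0.27, limma adjusted p = 0.035), and with the animal as a replicate block its adjusted p was 0.0589. It also missed the threshold with quantile normalization, with array median centring and in the deposited series table.

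In treated animals none of the 7 basement membrane genes passed. COL4A2, COL18A1 and NID1 changed by 0.67, 0.40 and 0.39, and COL4A2 and NID1 rose past the threshold with normexp. All 3 were lower at day 14 in DE27 and higher in DE29, DE31 and DE32. LAMA2, the muscle laminin chain, had the smallest p of the role, with a change of -0.55 (SE 0.32, limma adjusted p = 0.213). COL15A1, LAMB1 and LAMC1 changed by -0.09, 0.02 and -0.05 in treated animals and by 0.18, 0.21 and 0.11 in controls.

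Markers of vessel cells moved in the same direction as these genes in controls. Of 9 endothelial genes tested, 7 rose in controls (median 1.02) and 4 in treated animals (median 0.71). Of all probes, 21.8% rose and 17.3% fell in controls, and 18.2% rose and 11.6% fell in treated animals. Of 8 smooth muscle and pericyte genes, 6 rose in controls (median 1.26) and 1 fell, DES, which muscle fibres also express, and none passed in treated animals (median 0.43). The log2 of the summed endothelial signal was 13.79 to 14.24 in controls at day 0 and 14.48 to 16.01 at day 14, and 14.12 to 14.67 and 14.86 to 15.95 in treated animals. For smooth muscle and pericyte genes it was 16.65 to 16.94 and 16.23 to 17.31 in controls, and 16.13 to 16.73 and 15.96 to 16.66 in treated animals. A sum follows its brightest probes, here DES at a mean of 15.76 and, among the endothelial genes, EGFL7 at 14.26. The median deviation of the 8 smooth muscle and pericyte genes from their means over all arrays weighs each gene alike. It was -0.61 to -0.34 and -0.23 to 1.25 in controls, and -0.69 to 0.11 and -0.75 to 1.01 in treated animals. Every gene of these 2 marker lists was well above background on all 20 arrays. Their part in the change of the basement membrane genes was not tested.

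**Figure D4:**
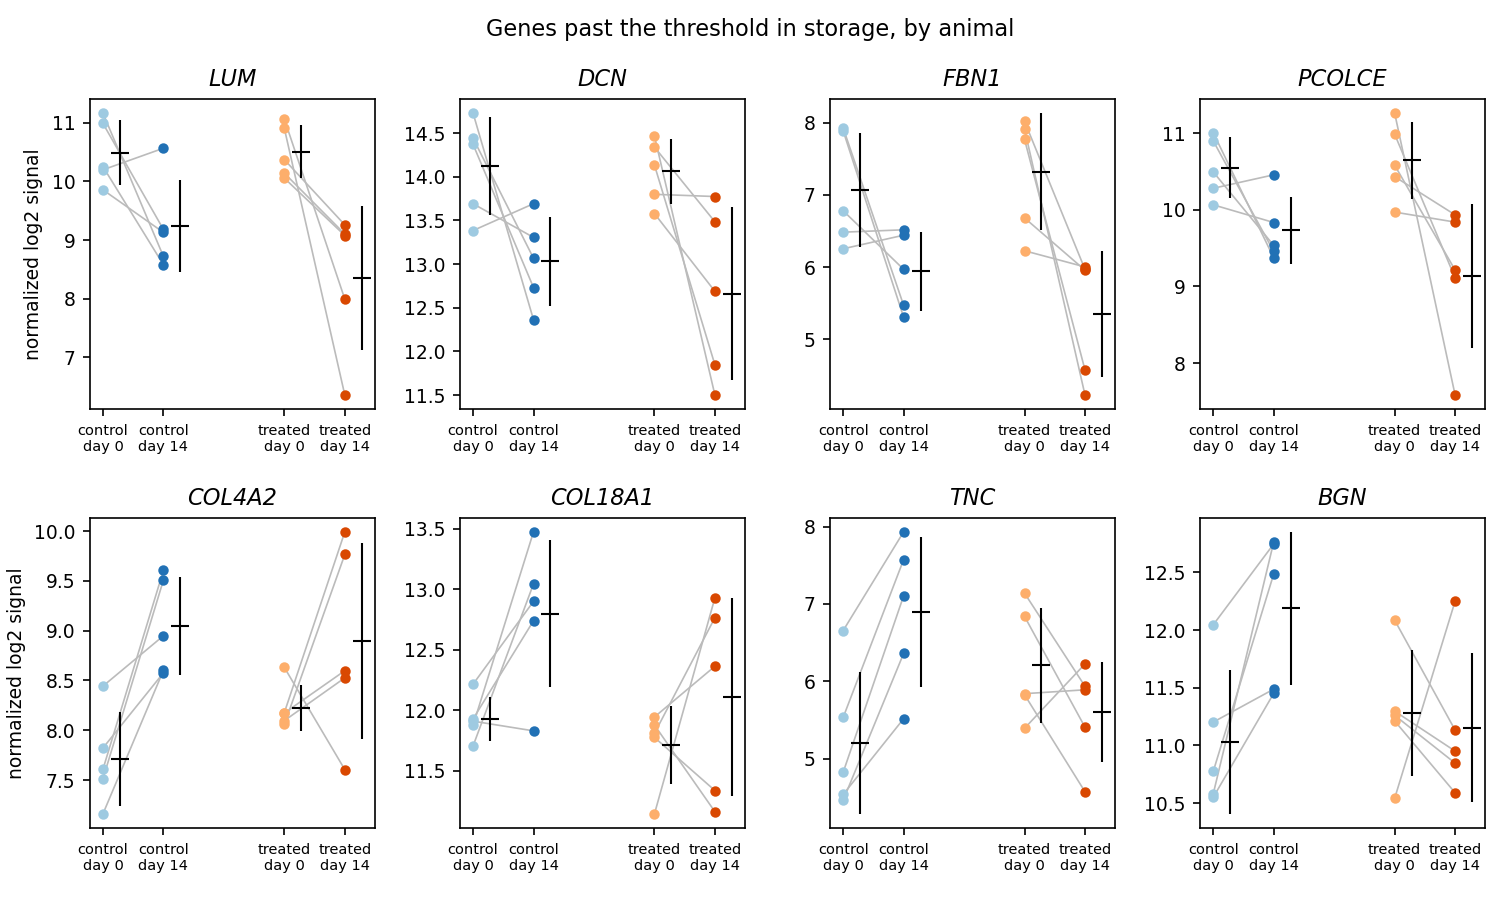
Normalized log2 signal of 8 matrix genes that passed the threshold in at least 1 storage comparison, with 1 point per array, grey lines joining the 2 days of an animal, and a black dash and bar for the mean and SD of 5 arrays. LUM, DCN, FBN1 and PCOLCE are lower at day 14 in most animals of both sets, and COL4A2, COL18A1, TNC and BGN are higher at day 14 in most controls.

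Fibrillar collagens, the bulk of the connective tissue, did not pass in any comparison. COL1A1, the main chain of type I collagen, was 13.17, 12.90, 13.73, 13.06 and 13.64 in controls at day 0 and 12.57, 15.04, 12.97, 12.64 and 12.18 at day 14. K6 was higher by 2.13 at day 14 while the other 4 controls were lower. The mean change was -0.22 (SE 0.46, limma adjusted p = 0.73). In treated animals COL1A1 went from 14.75, 13.85, 12.78, 13.09 and 12.34 to 11.20, 10.48, 12.04, 13.31 and 13.00. DE27 and DE29 changed by -3.55 and -3.37, and DE31 and DE32 were higher at day 14. The change of -1.36 (SE 0.58) had a limma adjusted p of 0.1.

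COL3A1, the type III chain of finer fibrils, followed the same animals. It was 13.49, 12.40, 13.85, 12.79 and 13.18 and then 12.65, 14.55, 12.50, 13.02 and 12.15 in controls, and 13.40, 13.76, 12.96, 12.32 and 12.38 and then 10.98, 11.29, 12.11, 13.30 and 12.26 in treated animals. K6 was again the highest and DE27 and DE29 the lowest at day 14. The changes were -0.17 in controls (limma adjusted p = 0.776) and -0.98 in treated animals (limma adjusted p = 0.109). COL1A1 and COL3A1 both fell past the threshold in treated animals with normexp and with array median centring. COL1A2, COL5A1 and COL5A2 changed by -0.29, 0.24 and 0.17 in controls, where COL5A1 had the smallest p of the role (limma adjusted p = 0.458), and by -1.07, -0.40 and -0.57 in treated animals.

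None of the 4 tested fibril-associated and beaded collagens passed. COL6A1, a chain of the beaded collagen VI that links fibrils to cells, had the smallest p in both sets, with changes of 0.84 in controls (SE 0.40, limma adjusted p = 0.117) and -1.13 in treated animals (SE 0.66, limma adjusted p = 0.218). In treated animals it went from 12.51, 9.92, 9.98, 9.39 and 11.32 to 8.53, 7.93, 10.14, 10.58 and 10.27, a change of -3.97 in DE27 beside higher values in DE30 and DE31. COL6A2, its partner chain, changed by 0.14 and -0.12. COL6A3 and COL12A1 changed by -0.21 and 0.02 in controls and by -0.63 and -1.05 in treated animals.

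The adhesive and matricellular glycoproteins bind cells to the matrix or modulate that binding. TNC had the largest rise of the list in controls, from 4.46, 5.53, 6.66, 4.83 and 4.54 to 6.36, 7.57, 7.93, 7.10 and 5.52. All 5 controls were higher at day 14, by 0.98 to 2.28. The change was 1.69 (SE 0.51), or 3.23-fold, with a limma adjusted p of 0.0234. In treated animals TNC went from 5.83, 5.84, 6.84, 7.14 and 5.40 to 4.58, 5.89, 5.41, 5.94 and 6.23, lower in 3 and higher in 2. That change of -0.60 did not pass.

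FN1, for fibronectin, fell in treated animals, from 12.80, 12.69, 11.90, 11.28 and 10.82 to 9.98, 9.93, 10.76, 11.44 and 10.96. DE27, DE29 and DE30 changed by -2.83, -2.77 and -1.15, and DE31 and DE32 were slightly higher. The change was -1.29 (SE 0.43, limma adjusted p = 0.0405), and it did not pass with the animal as a replicate block (limma adjusted p = 0.0998), with scan session as a block or with quantile normalization. In controls FN1 was 12.04, 11.29, 12.49, 11.36 and 11.81 and then 11.16, 12.39, 11.41, 11.12 and 10.62, a change of -0.46 (limma adjusted p = 0.29).

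SPARC, the collagen-binding protein osteonectin, was among the steadiest genes of the list. It was 15.45, 15.31, 15.63, 15.04 and 15.39 and then 15.45, 15.42, 15.45, 15.93 and 15.06 in controls, and 15.75, 15.05, 15.05, 14.94 and 14.99 and then 14.57, 15.40, 14.82, 15.22 and 15.70 in treated animals. The 4 groups overlapped throughout, and the changes with storage were 0.10 (SE 0.18) and -0.01 (SE 0.25). THBS1, for thrombospondin 1, was higher at day 14 in all 5 controls, with a change of 1.35 (SE 0.55) that did not pass (limma adjusted p = 0.0711), and it passed with the animal as a replicate block (limma adjusted p = 0.0108). POSTN, for periostin, changed by -0.40 and -1.17 with a standard deviation between animals of up to 1.48, and did not pass.

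Of the proteases and their inhibitors MMP2 alone passed, and only in treated animals. It went from 11.75, 11.51, 11.49, 10.92 and 10.74 to 10.11, 9.86, 10.46, 10.67 and 11.03, lower in 4 animals and higher in DE32. The change was -0.85 (SE 0.27, limma adjusted p = 0.0338), and the second MMP2 probe changed by -0.93 (SE 0.24, limma adjusted p = 0.0152). The first probe did not pass with the animal as a replicate block (limma adjusted p = 0.0899), with scan session as a block or with quantile normalization. In controls MMP2 changed by -0.08. Its membrane-bound activator MMP14 changed by 0.14 and 0.19, on signals not well above background on 6 of the 20 arrays. The probe named for TIMP3 changed by 0.48 and -0.21. The inhibitors TIMP1 and TIMP2 changed by 0.38 and -0.16 in controls, where TIMP1 had the smallest p of the role (limma adjusted p = 0.305), and by -0.24 and -0.58 in treated animals, and none passed.

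The processing and cross-linking genes act on collagen inside and outside the cell. PCOLCE, the enhancer that speeds removal of the procollagen C-propeptide, fell in both sets. It was 11.01, 10.28, 10.90, 10.07 and 10.49 and then 9.37, 10.46, 9.46, 9.83 and 9.53 in controls, lower in all but K6. The change was -0.82 (SE 0.25, limma adjusted p = 0.0254). In treated animals it went from 11.26, 10.99, 10.58, 10.43 and 9.97 to 7.58, 9.11, 9.21, 9.93 and 9.84, lower in all 5 and without overlap. The change was -1.51 (SE 0.42, limma adjusted p = 0.0198), a 2.85-fold fall. With the animal as a replicate block the adjusted p was 0.0635 in controls and 0.0565 in treated animals.

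LOXL1, a lysyl oxidase relative that acts on elastin, went from 8.46, 7.66, 8.07, 7.58 and 7.26 to 4.93, 6.11, 6.79, 6.80 and 7.48 in treated animals. It was lower in all but DE32, and DE27 was not well above background at day 14. The fall was 2.61-fold, with a log2 change of -1.38 (SE 0.42, limma adjusted p = 0.0293), and it did not pass with the animal as a replicate block (limma adjusted p = 0.0705). LOX itself, which cross-links collagen and elastin, changed by -1.82 (SE 0.67, limma adjusted p = 0.0591) in treated animals, where it was lower in all 5, with changes from -0.04 in DE31 to -5.18 in DE27. The collagen chaperone SERPINH1 and the prolyl hydroxylase P4HA1 changed by 0.53 and -0.71 in controls and by 0.28 and -0.22 in treated animals, and neither passed.

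Apart from COL4A2 in controls, each call was lost when 1 or more of the animals was left out. In controls, 2 genes passed without K3 and 4 without K8 or K9, against 10 with all animals. Calls over all probes also fell, from 6041 to 4309, 4147 and 3213 without K3, K8 and K9. COL18A1 lost its call without K3, K6, K8 or K9 (limma adjusted p up to 0.102), OGN without the same 4 (up to 0.149) and LUM without K3, K8, K9 or K10 (up to 0.108). TNC and NID1 lost theirs without K3, K6 or K9 (up to 0.104 and 0.178), BGN without K6 or K9 (up to 0.121), and DCN, FBN1 and PCOLCE without K3, K8 or K10 (up to 0.0794, 0.159 and 0.118). In treated animals no gene passed without DE29 and 3 passed without DE30, against 8 with all animals. Here the calls over all probes fell from 4582 to 2668 without DE29 and 3425 without DE30. LUM and FBN1 lost their calls only without DE29 (limma adjusted p of 0.0554 and 0.0559). PCOLCE and FBLN5 lost theirs without DE29 or DE30 (up to 0.0846 and 0.0956), LOXL1 without DE29, DE30 or DE31 (up to 0.101), DCN without DE27, DE29 or DE32 (up to 0.111), FN1 without DE27, DE29 or DE30 (up to 0.187) and MMP2 without any animal but DE32 (up to 0.151). Leaving out an animal also added calls. COL1A1, FN1 and FBLN5 fell in controls without K6, and without K10 P4HA1 fell while ELN and COL6A1 rose. In treated animals COL4A2 and NID1 rose and OGN and P4HA1 fell without DE27, COL3A1 fell without DE31, and FBLN1 and VCAN fell without DE32.

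**Figure D5:**
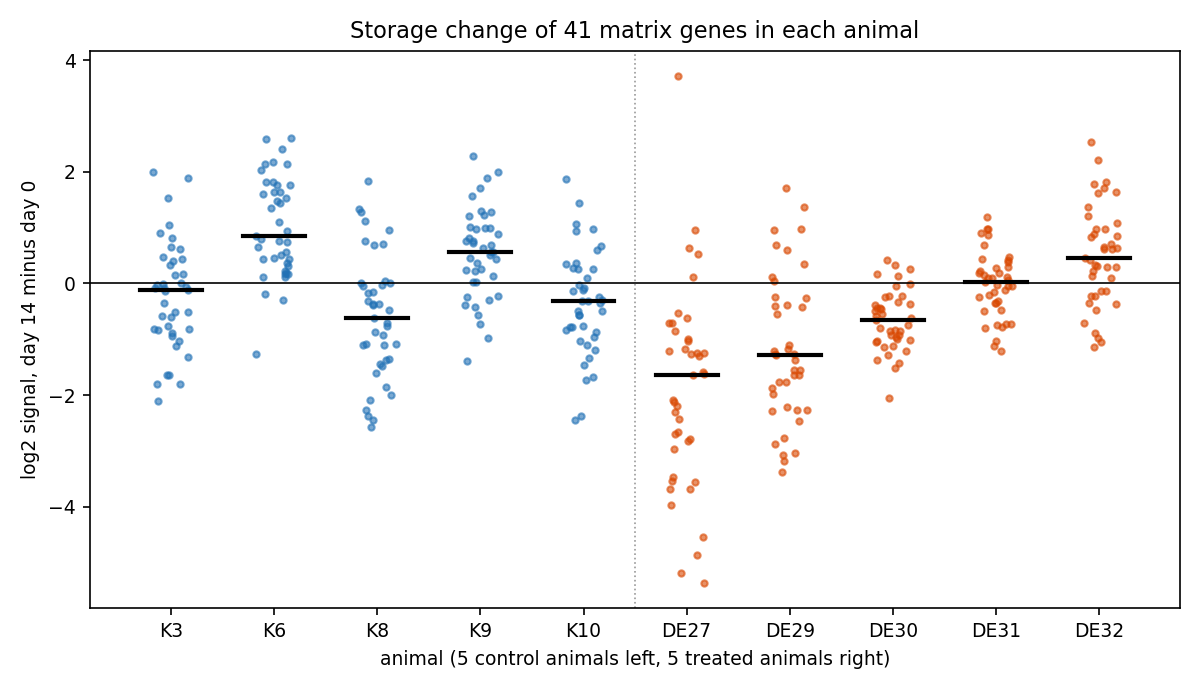
Log2 signal at day 14 minus day 0 of each of the 41 matrix genes (points) in each of the 10 animals, with the median of the 41 as a black bar. The medians run from -0.62 to 0.84 in controls and from -1.64 to 0.45 in treated animals.

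Animal by animal, the median storage change of the 41 genes was -0.13 in K3, 0.84 in K6, -0.62 in K8, 0.56 in K9 and -0.32 in K10. In the treated animals it was -1.64 in DE27, -1.27 in DE29, -0.66 in DE30, 0.02 in DE31 and 0.45 in DE32. The ranges overlap, and K6 with 38 of 41 genes higher and DE27 and DE30 with 36 of 41 lower were the most uniform. LUM was lower in 9 of the 10 animals, DCN in 9 and PCOLCE in 9, K6 being the exception each time. Fibroblast markers did not move as 1 block with storage: 2 of 9 fell and 1 rose in controls, and 2 fell and 2 rose in treated animals. Among all probes 17.3% fell and 21.8% rose in controls, and 11.6% fell and 18.2% rose in treated animals. CLEC3B, which encodes tetranectin, rose in both sets, by 0.85 and 0.79, and LSP1 rose in treated animals, by 0.68. PDGFRA, a growth factor receptor of fibroblasts, and MFAP5, a microfibril protein that is also on the list of further matrix genes, fell in both sets, with changes of -0.73 and -1.47 in controls and of -1.29 and -1.69 in treated animals. The fibroblast markers' summed signal on the log2 scale was 12.58 to 13.84 and 12.57 to 14.00 in controls at days 0 and 14, and 12.51 to 13.67 and 12.11 to 13.18 in treated animals. Their part in the fall of LUM, DCN, FBN1 and PCOLCE was not tested.

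The difference between the storage changes of treated and control animals was tested directly with all 20 arrays. No matrix gene passed, nor did any probe of the array (0.0% in limma, with 541 probes at an unadjusted p under 0.05). Of the 41 genes, 38 had a lower change in treated animals, with a median difference of -0.69 against 0.04 over all probes, and 5 had an unadjusted p under 0.05. TNC had the largest, -2.29 (SE 0.69), followed by COL6A1 with -1.97 (SE 0.83), ELN with -1.67 (SE 0.60), BGN with -1.28 (SE 0.52) and MMP2 with -0.77 (SE 0.33), each with a limma adjusted p of 1. In the remaining roles LOXL1, COL5A2 and LAMA2 had the smallest p, with differences of -1.06, -0.74 and -0.54. A gene that passed in 1 set of animals and not in the other is therefore not shown to differ between them.

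Further matrix genes were read from a list of 123, of which 103 were tested. At day 0, 1 of them was higher and 2 were lower in treated animals, 2.91% of the list beside 2.45% of all probes. MMP11, a stromelysin, was higher by 1.23 (SE 0.28, limma adjusted p = 0.045). MGP, which inhibits calcification, differed by -0.82 (limma adjusted p = 0.0282), and the protease HTRA1 by -0.69 (limma adjusted p = 0.0238). At day 14 of treatment against control none of the 103 passed in limma, with 19 at an unadjusted p under 0.05 and 75 below 0. Of all 15423 probes, 1613 had an unadjusted p under 0.05.

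With storage, 20 of these 103 genes rose and 7 fell in controls, and 8 rose and 10 fell in treated animals. The risen and fallen shares were 19.4% and 6.80% in controls, beside 21.8% and 17.3% of all probes, and 7.77% and 9.71% in treated animals, beside 18.2% and 11.6%. In controls the rises with the smallest p were those of ITGA5, the fibronectin receptor chain, by 1.24, HSPG2, the basement membrane proteoglycan perlecan, by 1.36, COL7A1, the anchoring fibril collagen, by 1.09, and ITGA8, an integrin of smooth muscle and other contractile cells, by 1.68. The falls were those of the membrane proteoglycan SDC2, which changed by -1.18, the integrin chain ITGAV by -0.91, BAMBI, a decoy receptor of TGF-beta signalling, by -2.15, and DAG1, the laminin receptor dystroglycan, by -0.96. In treated animals VTN, ITGA5, PLOD2 and COL10A1 rose, by 1.61, 1.41, 1.36 and 0.96. ITGAV, PCOLCE2, ADAMTS2 and BAMBI fell, with changes of -0.94, -1.35, -1.65 and -1.57. PCOLCE2 is the relative of PCOLCE, and ADAMTS2 removes the procollagen N-propeptide. Of the 103 genes, 9 passed in the same direction in both sets of animals: ITGA5, FKBP10 and TIMP4 rose, and BAMBI, ITGAV, MFAP5, SDC2, SMAD4 and TGFBR2 fell. Here too no share of all probes called in both sets stands beside the count.

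Markers of the remaining cell types were read in the same fits. With storage, 21.8% of all probes rose and 17.3% fell in controls, and 18.2% rose and 11.6% fell in treated animals. At day 0, 1.32% of all probes were higher in treated animals. Among 4 tendon genes, FMOD of the matrix list included, 1 rose in controls with storage, and among 6 adipocyte genes 1 rose in controls and 1 fell in treated animals. Of 7 macrophage genes none passed with storage and 1 was higher in treated animals at day 0. Of 6 nerve and Schwann cell genes 1 rose in controls with storage and 1 was higher in treated animals at day 0. Among the 11 muscle fibre genes, 1 rose and 2 fell in controls, and 5 rose in treated animals. The tendon markers SCX and COMP gave no measured level, SCX having no matched probe and COMP being well above background on 2 arrays.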

How the data were processed

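Members and gene lists were chosen with earlier results of these data known. Total RNA of each sample was hybridised to an Agilent bovine array, 1 sample per array. The deposited intensity values are Agilent's processed signal, detrended and background-subtracted by Feature Extraction 9.5.1.1, per the file headers; R 2.11.1 is named in the submitters' processing notes. The authors' deposited series table, of intensity values on a linear scale normalized in a way not given in the sources used here, served as an alternative after its log2 was taken. Here spots flagged as outliers were left out, log2 signals were centred on each array's 75th percentile, spots of a probe were averaged, and probes flagged as well above background by the scanner software on 5 or more arrays (15431 of 21475) were tested with limma 3.58.1 (R 4.3.3, lmFit and eBayes) and Benjamini-Hochberg adjustment over all of them, at a threshold of 0.05. Each comparison of 2 groups used its 10 arrays, without an animal term, and the difference in storage change used all 20. A few probes that lost an array to outlier flags were left out of the comparisons that used that array. This left 15421 to 15429 probes in each comparison, and the adjustment was made over these.

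In each comparison full statistics go to the members past the threshold and, in roles where none passed, to the member with the smallest p; array values are given for the genes that passed and for COL1A1, COL3A1, DCN, FN1 and SPARC. Of the other matrix genes only those past the threshold are named, up to 4 in each direction. BGN, LUM and similar names are those of the array design, and THBS1 and VCAN were updated. MMP2, ELN and COL6A1 array values at single days were added after seeing the data. Arrays of the same number come from the same animal, so the numbers pair the samples of both days; the correlation of their deviations from the group means was -0.15 to 0.28. The number of arrays limits the precision. Alternatives were other background corrections, scalings and filters, 1 fit of all arrays, blocks for animal, slide and scan session, the mean of a gene's probes, and leaving out each animal. The pipeline was tested on simulated data: 2-fold changes were recovered in 32% to 61% of cases and 4-fold changes in 71% to 91%. The changed probes were drawn at random from all tested probes, whose median spread was below that of the matrix genes. Figures were drawn with matplotlib 3.10.9.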

Additional observations from a re-analysis of the deposited data

Results flagged for a closer look

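In groups of 5, an array was singled out when its gap to the nearest of the others was more than 0.71 of the range of the group, which chance alone gives in about 1 in 20 groups. Of 72 groups examined (17 genes named in the report and the level of the whole list, each in 4 groups), 7 held such an array. COL1A1 was 15.04 in K6 at day 14, with the nearest control at 12.97. SPARC and COL4A2 were high in DE27 at day 0, at 15.75 against 15.05 and at 8.63 against 8.18. COL18A1 was low in DE32 at day 0, at 11.14 against 11.77. NID1 was low in K9 at day 0, at 4.85 against 5.43, and in DE27 at day 14, at 3.33 against 5.87, where it was not well above background. The same arithmetic picked OGN in DE32 at day 14, at 1.87 against 2.41, but no array of that group was well above background, so these values have no order. No gene changed one way in all control animals and the opposite way in all treated animals with storage.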

How the results depend on the processing

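Of 188 values of the lists under alternative settings, 175 kept within 1.5 times the main count or within the spread between animals. With slide as a block no matrix gene passed with storage, 0 in controls and 0 in treated animals, and the median change in treated animals turned to 0.45. At day 14 of treatment 1 gene, ELN, passed with all arrays in 1 fit and 1 with the animal as a replicate block. In treated storage 17 passed with normexp, 16 with array median centring and 4 with the animal as a replicate block, against 8. In controls the block changed the count from 10 to 7, of which 6 were among the 10 and THBS1 was added. The animal block could not change the direction of a gene, because each animal had 1 array at each day. Leaving out each animal gave 2 to 9 genes in control and 0 to 9 in treated storage. Single values that turned sign were OGN with normexp (0.86 in controls and 1.24 in treated animals, the latter past the threshold), OGN with slide as a block (0.36 in controls), LAMC1 with normexp (0.79, past the threshold), and FN1 (0.14), LOXL1 (0.22) and MMP2 (0.29) with slide as a block in treated animals. The cause was not tested, other than that the slide block leaves 1 slide per set with both days.

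Over all probes, 378 were called at day 0 of treatment, against 231 without a filter on dim probes, 195 in 1 fit of all arrays and 203 with the animal as a replicate block, and 135 to 312 when an animal was left out. At day 14 the 11 calls became 1 with normexp, 7 among probes well above background on all arrays, 105 in 1 fit, 110 with the animal block, 0 with slide and 3 with scan session as a block, and 0 to 12 without an animal. In control storage 6041 became 183 with slide as a block and 3213 to 6651 without an animal. In treated storage 4582 became 8795 with normexp, 8722 without a filter, 0 with slide as a block and 2434 to 5703 without an animal. Of the calls in treated animals 61.1% were higher, against 80.9% with normexp, 77.8% without a filter, 45.6% with quantile normalization or the deposited table and 29.5% with median centring. In controls the same settings gave 77.1%, 69.5%, 46.0%, 47.5% and 29.4%, against 55.8%. Signal near background limits OGN, MMP14, COL4A1 and COL14A1.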
